A study of Mus musculus with 2 samples.

Results

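The 7 carbonic anhydrase genes Car1, Car2, Car3, Car4, Car8, Car12 and Car13 were followed across the cell types of the mouse colon and between Pink1 knockout (Pink1 KO) and wild-type (WT) mice. They were chosen by gene symbol, with no rule on their counts but with earlier results of these data known. All 7 were among the 32285 genes of the count tables, where 16 genes carried a carbonic anhydrase symbol. Nuclei came from the flushed colon of male C57BL/6 mice aged 15 weeks, with 3 Pink1 KO mice in 1 library and 3 WT littermates in the other, and neither group carried a further allele or treatment in the labels. The product of Pink1 is a mitochondrial kinase that flags damaged mitochondria for disposal. The labels do not say which exons the knockout lacks. Nuclei were freed with detergent, sorted by the DNA dye SYTOX Green into methanol and sequenced by a droplet method that reads 3′ ends. Nuclei of the 3 mice were pooled before loading, so a library cannot be split by animal, the spread between mice is unknown and genotypes could not be tested against each other. The labels give batch 2 to the Pink1 KO and batch 1 to the WT library, so genotype, library and batch cannot be told apart.

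Carbonic anhydrases are zinc enzymes that convert carbon dioxide and water into bicarbonate and a proton, and back. In the colon they supply the ions that the sodium-proton exchanger Slc9a3 and the chloride-bicarbonate exchanger Slc26a3 move across the surface epithelium, and so serve the uptake of salt and water. Car1, Car2, Car3 and Car13 encode cytosolic enzymes, Car4 an enzyme held on the outer cell surface by a lipid anchor and Car12 an enzyme that spans the membrane with its active site outside the cell. Car8 encodes a related protein that has lost the enzyme activity and binds the inositol trisphosphate receptor Itpr1, as known from the cerebellum.

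The part of the coding sequence that sets Car8 apart is shown first, because it divides the 7 members into enzymes and the acatalytic protein. Each line gives 7 codons (21 bases) from the longest open reading frame of the gene's GENCODE M21 transcripts on GRCm38, aligned to Car2, and the capitals mark the codons at the positions of the first pair of zinc-binding histidines of Car2.
Car1: cagttcCATtttCACtggggc
Car2: cagtttCACtttCACtggggc
Car3: caattcCATcttCACtggggc
Car13: cagttcCATttgCACtggggg
Car4: cagttgCACctgCACtggtca
Car12: cagctgCACttgCACtggggg
Car8: gaagttAGAtttCACtgggga
Both marked codons were histidine codons in 6 of the 7 genes. In Car8 the first marked codon was AGA, which does not encode histidine, and the second was CAC. Over the whole aligned reading frame, 58.3% of Car1 codons, 56.9% of Car3 codons and 56.5% of Car13 codons encoded the same residue as Car2, against 43.3% for Car8, 37.5% for Car12 and 33.3% for Car4. Car13, Car1, Car3 and Car2 lie in that order within 259044 bases of chromosome 3 (14641727 to 14900770), Car1 on the minus strand and the other three on the plus strand.

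The Pink1 KO library held 12230 barcodes and 22446326 UMIs and the WT library 8924 barcodes and 16997995 UMIs, of which 10966 Pink1 KO and 8256 WT nuclei were kept, at median depths of 1571 and 1624.5 UMIs. Pink1 itself had 113 counts in the Pink1 KO and 171 in the WT library, a ratio of 0.537 (0.420 to 0.686), so its transcript was lower and not absent. Tags outside the deleted part check nothing about the label. All ratios are Pink1 KO over WT of CPM, the usual counts-per-million scale relative to all UMIs of nuclear-encoded genes in the same nuclei. Each ratio is followed in parentheses by its 95% interval, which reflects counting alone and says nothing of the variation between mice. Joint clustering, with all carbonic anhydrase genes kept out of the genes used for it, gave 30 clusters, 16 of them epithelial. In the epithelium, 17 of 21 measured immediate early genes, the first genes induced by stimulation, were at least 1.5-fold higher in the Pink1 KO library, against 3.83% of all genes, and their part in the results below was not tested beyond leaving them out of the totals. A total of 28 barcode sequences occurred in both libraries.

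The colonocyte-like class, the absorptive surface cells, consisted of cluster 7 (led by Slc37a2, Slc15a1 and the acute-phase gene Saa1), cluster 6 (Slc10a2, Grin3a) and cluster 10 (Emp1, Slc9a3). Cluster 7 made up 26.0% of the class in the Pink1 KO and 48.8% in the WT library, cluster 6 made up 38.9% and 40.2%, and cluster 10 made up 35.1% and 11.03%. The largest cluster of the class was therefore cluster 6 in the Pink1 KO and cluster 7 in the WT library, and values of the whole class also carry this mix. Goblet-like nuclei, the mucus-secreting cells, lay in cluster 4 (Mptx1, Reg4) and cluster 9 (Clca1, Fcgbp and the immune gene Slfn4). Cluster 4 made up 55.1% of that class in the Pink1 KO and 68.2% in the WT library, and cluster 9 made up 44.9% and 31.8%. Crypt-base and proliferating nuclei lay in clusters 3, 5, 8 and 12. Cluster 0 (Gsdmc3, Gk), cluster 2 (Apol10a, Hsd3b3, Reg3b), cluster 1 (Plet1, Ffar2) and cluster 14 (Mirg, Meg3) were epithelial and met no marker rule, and the goblet gene Muc2 was high in clusters 1 and 14.

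**Figure D1:**
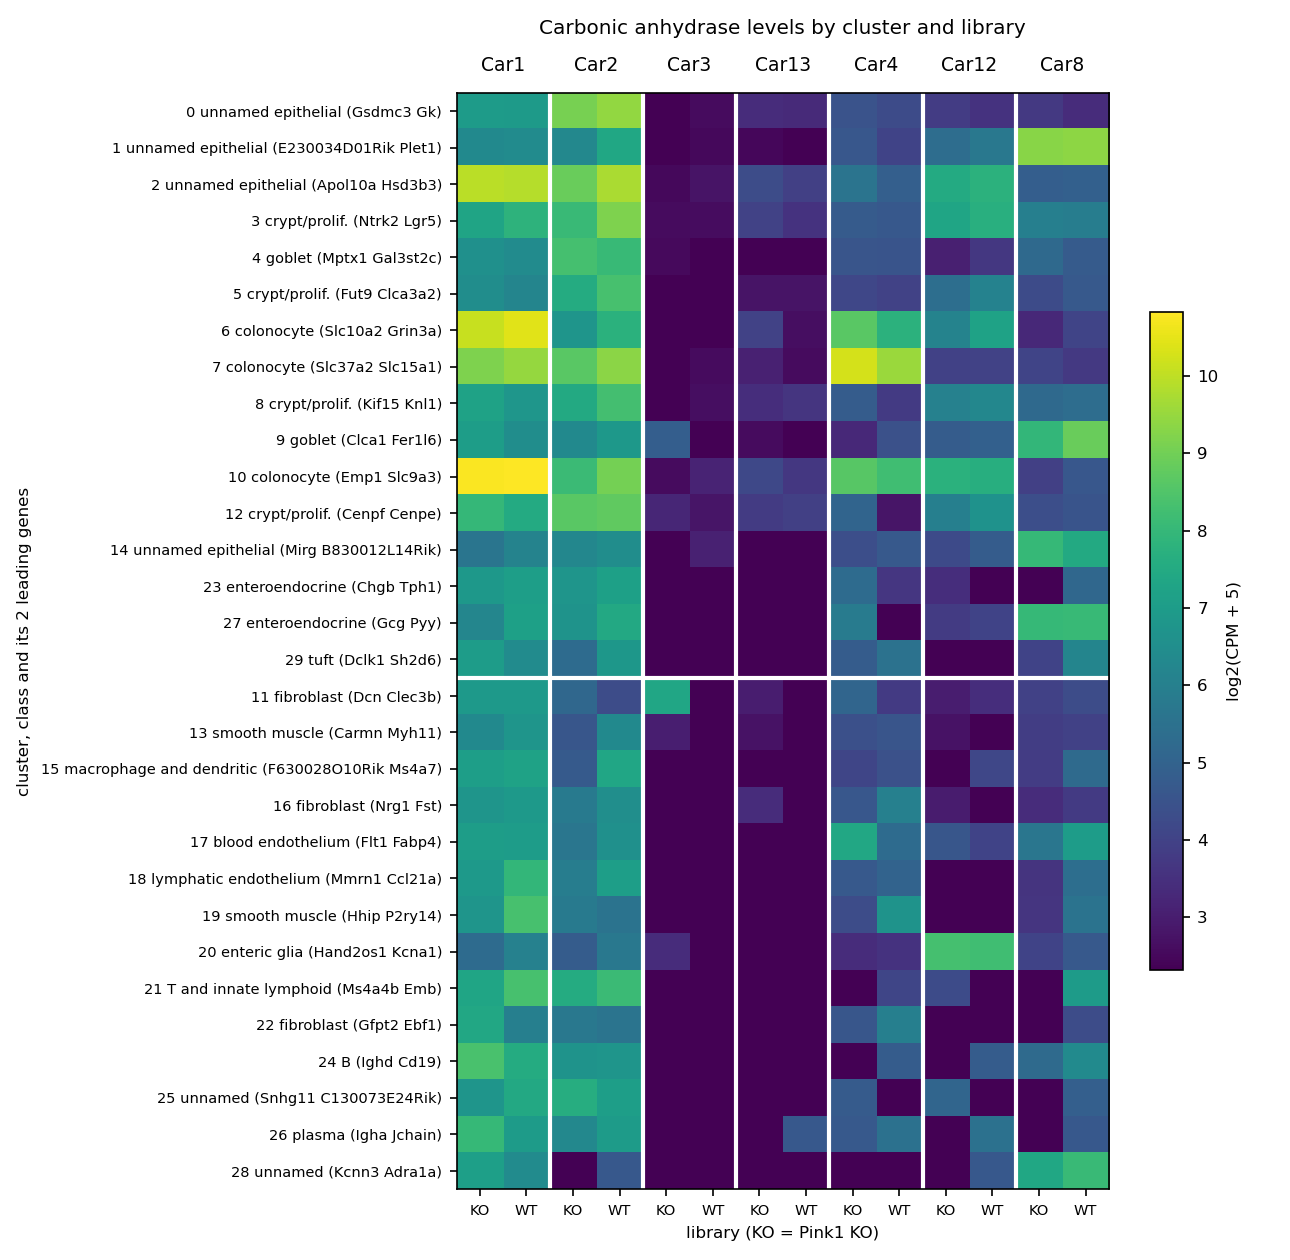
Level of each gene as log2(CPM + 5) (colour) in each cluster (rows, epithelium above the white line) of the Pink1 KO and WT libraries (paired columns). Car1 was highest in cluster 10, Car4 in cluster 7, Car8 in cluster 1 and Car12 in the enteric glia-like cluster 20, in both libraries.

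The members were highest in different clusters, and the leading cluster was the same in both libraries for Car1, Car4, Car8 and Car12. Car1 was highest in colonocyte-like cluster 10, Car4 in colonocyte-like cluster 7, Car8 in Muc2-high cluster 1 and Car12 in enteric glia-like nuclei, and Car2 was highest in cluster 0 in the Pink1 KO and in cluster 2 in the WT library. Car3 and Car13 were sparse in both. Of the 7 members, over all nuclei, 2 exceeded 1.5-fold upward in the Pink1 KO library (Car3, Car13), 1 downward (Car2) and 4 lay between. Of all 14619 genes with at least 50 counts, 11% passed 1.5-fold in either direction. Within the epithelium 6 members had enough counts, with Car13 higher, Car2 lower and 4 between, against 10.1% of all genes past 1.5-fold. The median log2 ratio of the measured members was 0.19 over all nuclei and 0.07 in the epithelium, beside -0.02 and -0.04 over all genes tested.

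Car2 was lower in the Pink1 KO library in most of the epithelial clusters. It encodes the fast cytosolic enzyme (ENSMUSG00000027562; GRCm38, chromosome 3, 14886273 to 14900770, plus strand). Over all nuclei it had 4347 counts in the Pink1 KO and 5685 in the WT library, or 234.5 and 377 CPM, a ratio of 0.622 (0.598 to 0.647). In colonocyte-like nuclei its ratio was 0.533 (0.484 to 0.587), from 250.7 CPM in the Pink1 KO and 470.2 CPM in the WT library. It was the only one of the 4 measured members past 1.5-fold there, where 15.5% of all genes passed. In crypt-base and proliferating nuclei the ratio was 0.575 (0.526 to 0.627), from 232 and 403 CPM, and 1 of the 5 measured members was lower and 1 higher, against 8.16% of all genes past 1.5-fold. In goblet-like nuclei, whose 2 clusters differed for this gene as given below, Car2 had 203 CPM in the Pink1 KO and 209 CPM in the WT library, a ratio of 0.970 (0.845 to 1.11). None of the 5 measured members passed 1.5-fold in that class, where 13.9% of all genes did.

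Across the 13 epithelial clusters with at least 100 nuclei in each library, Car2 was below 1 in 12 and at least 1.5-fold lower in 8. With the stricter filter the best-matching cluster gave 0.943 for both cluster 6 and cluster 10, in place of 0.495 and 0.515. Both were thus probably matched to the same cluster, and the whole colonocyte-like class was at 0.470 in that setting. With the libraries clustered separately the Car2 ratio was 0.964 in cluster 10. The share of all genes at least 1.5-fold lower ran from 5.32% to 11.9% over these clusters. The lowest ratios were 0.453 (0.367 to 0.558) in cluster 1, from 73.3 CPM in the Pink1 KO and 162 CPM in the WT library, and 0.461 (0.396 to 0.536) in crypt-base-like cluster 3, from 266.5 and 578 CPM. Outside the epithelium, at the levels given below, the Car2 ratio was 0.506. The part of free RNA in the low cluster 1 level was not tested. In cluster 2 Car2 had 464 CPM in the Pink1 KO and 862 CPM in the WT library, a ratio of 0.538 (0.488 to 0.594). In cluster 0 the gap was narrower, at 538 and 694 CPM and a ratio of 0.775 (0.719 to 0.836). As a result cluster 0 led the order in the Pink1 KO and cluster 2 in the WT library, and in neither library did the intervals of these 2 clusters overlap. Cluster 7 came next in both, and its interval overlapped that of cluster 2 in the Pink1 KO and that of cluster 0 in the WT library.

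The exception was goblet-like cluster 4, the part of the goblet class led by Mptx1 and Reg4. There Car2 stood at 311 CPM in the Pink1 KO and 262 CPM in the WT library, a ratio of 1.19 (1.02 to 1.38), and the WT level was lower than in crypt-base and proliferating, colonocyte-like or cluster 2 nuclei of the same library. In the other goblet-like cluster, cluster 9, the ratio was 0.702 (0.504 to 0.978), from 77.4 and 110 CPM. In proliferating cluster 12, led by Cenpf and Mki67, it was 0.922 (0.751 to 1.13).

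The difference lay in how many nuclei held Car2 and in how many UMIs they held. In cluster 2, a Car2 UMI was found in 38.3% of 958 Pink1 KO and 58.2% of 651 WT nuclei, at median depths of 1483.5 and 1509 UMIs. With every nucleus thinned to 500 UMIs the shares were 17.2% and 29.5%. Nuclei with 5 or more Car2 UMIs made up 2.30% of the Pink1 KO and 7.37% of the WT nuclei of the cluster, and the most in 1 nucleus was 12 and 11. Outside the epithelium, where Car2 UMIs give the level of free RNA together with any expression, the shares were 4.65% and 8.61% at median depths of 1137 and 1207 UMIs (1.79% and 2.70% thinned). The level there was also lower in the Pink1 KO library, at 44.7 CPM against 88.2 CPM in WT, a ratio of 0.506 (0.403 to 0.636).

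**Figure D2:**
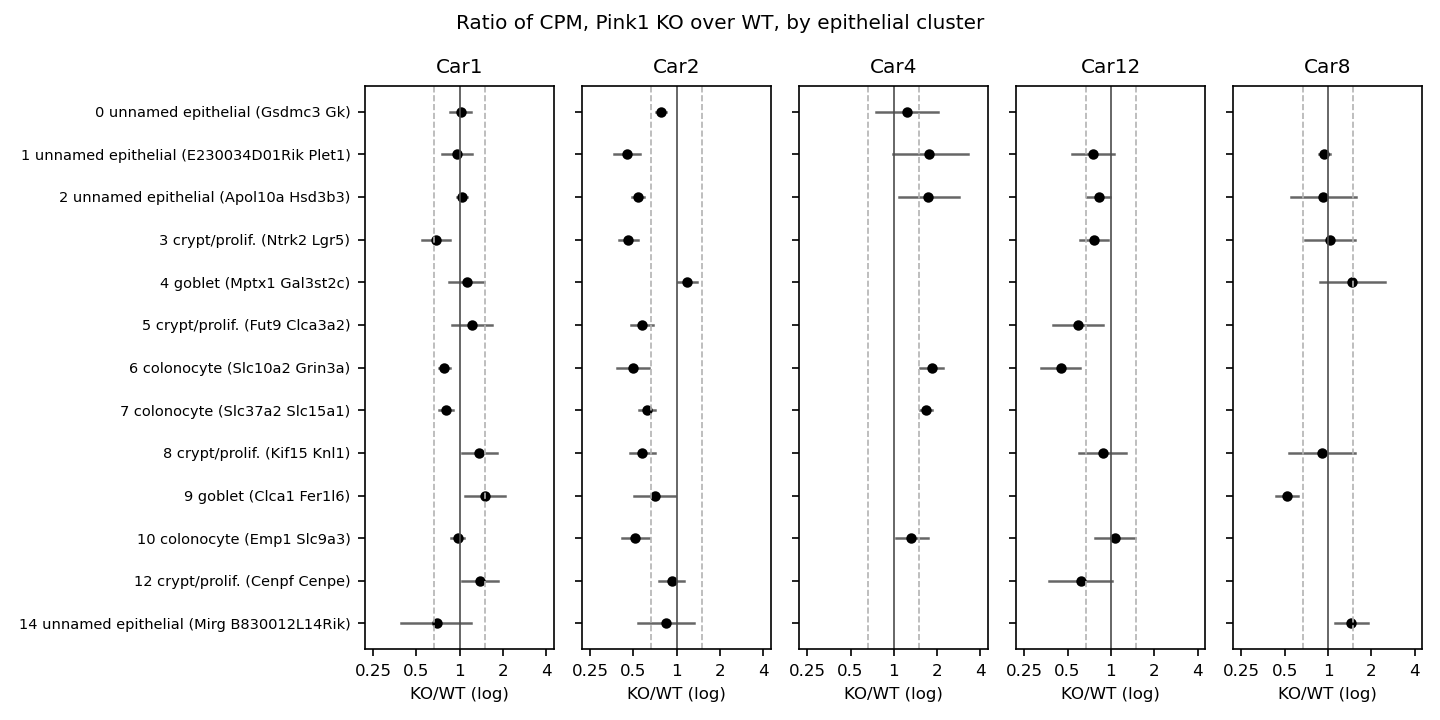
Ratio of CPM, Pink1 KO over WT, on a log axis, for 5 genes in the 13 epithelial clusters with at least 100 nuclei in each library. Points are ratios of summed counts, lines are 95% intervals for counting error, dashed lines mark 1.5-fold, and clusters with under 50 counts are left blank. Car2 lies left of 1 in every cluster but cluster 4, and Car4 lies right of 1 in all 6 clusters with enough counts.

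Car1, a cytosolic enzyme of red blood cells and of the surface epithelium of the large bowel (ENSMUSG00000027556; chromosome 3, 14766216 to 14808368, minus strand), was highest in the colonocyte-like clusters and cluster 2. A short processed pseudogene, Gm16399, lies within it on the same strand. In cluster 10 it had 1759.8 CPM in the Pink1 KO and 1811 CPM in the WT library, a ratio of 0.972 (0.877 to 1.08). It was next highest in cluster 6, at 1097 CPM in the Pink1 KO and 1404 CPM in the WT library, a ratio of 0.782 (0.718 to 0.851). Cluster 2 followed with 970.3 and 929.7 CPM (1.04, 0.963 to 1.13), and then cluster 7 with 571 and 712 CPM (0.801, 0.714 to 0.899). The intervals of neighbours in this order did not overlap in either library down to cluster 7. Together the 3 colonocyte-like clusters and cluster 2 held most Car1 UMIs, the class 53.4% in the Pink1 KO and 49.6% in the WT library and cluster 2 a further 22.4% and 21.6%.

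For the colonocyte-like class as a whole Car1 was slightly above 1, at 1187 CPM in the Pink1 KO and 1097 CPM in the WT library and a ratio of 1.08 (1.03 to 1.14), although no cluster of the class was above 1. With the 3 clusters at equal weight the ratio was 0.873, and without cluster 10 it was 0.856. Both settings were added after the data were seen. Of 13 epithelial clusters, none passed 1.5-fold for Car1 in either direction, with the lowest ratio, 0.686 (0.551 to 0.853), in crypt-base-like cluster 3 and the highest, 1.49 (1.09 to 2.08), in goblet-like cluster 9.

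Car1 was uneven from nucleus to nucleus. In cluster 10, 24.7% of 582 Pink1 KO and 29.9% of 117 WT nuclei held 5 or more Car1 UMIs, and these nuclei carried 75.9% and 77.3% of the cluster's Car1 counts. In the same cluster 210 Pink1 KO and 34 WT nuclei held none. The most in 1 nucleus was 92 UMIs in the Pink1 KO and 34 in the WT library. Outside the epithelium Car1 stood at 112 and 138 CPM and was found in 12.5% of Pink1 KO and 14.2% of WT nuclei (5.98% and 5.90% when thinned), at the median depths given above, a level that includes free RNA. Goblet-like nuclei, at 108 and 82.5 CPM, and cluster 1, at 77.3 and 80.5 CPM, did not exceed it.

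Car4, the surface-anchored enzyme of absorptive cells (ENSMUSG00000000805; chromosome 11, 84957786 to 84966044, plus strand), was concentrated in colonocyte-like nuclei, which held 84.5% of its Pink1 KO and 83.0% of its WT counts. It was higher in the Pink1 KO library in each of the 6 epithelial clusters where it had at least 50 counts. In goblet-like nuclei, neither cluster of which reached that number, the class ratio was 0.704 (0.408 to 1.201), from 27 counts in the Pink1 KO and 34 in the WT library. That class ratio was unstable, from 0.0428 to 1.87 over 15 alternative settings, and below 1 in 12 of them. In cluster 7 Car4 had 1061 counts in the Pink1 KO and 806 in the WT library, or 1244 and 743 CPM, a ratio of 1.67 (1.53 to 1.84), where 17.2% of all genes passed 1.5-fold. In cluster 6 it had 392 CPM in the Pink1 KO and 214 CPM in the WT library, a ratio of 1.83 (1.52 to 2.21), where 19.3% passed. In cluster 10 the levels were 392 and 296 CPM and the ratio 1.32 (1.03 to 1.72). The ratio was above 1 in all 6 epithelial clusters with at least 50 Car4 counts and past 1.5-fold in 4 of them, clusters 1, 2, 6 and 7. The intervals of 2 of the 6 held 1, cluster 1 among them (1.75, 0.980 to 3.26), and in cluster 1 the ratio was 0.428 with nuclei thinned to 500 UMIs. In clusters 0 and 1 Car4 was low, below its level outside the epithelium (given below) in both libraries. In cluster 2 the WT level about equalled the level outside the epithelium. With the stricter filter the Car4 ratio was 1.04 in cluster 2 and 1.44 in cluster 7, both under 1.5-fold. The share of all genes at least 1.5-fold higher ran from 5.07% to 11.8% over the 13 clusters.

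The ratio for the whole colonocyte-like class, 1.29 (1.19 to 1.39) from 638.5 and 495 CPM, was smaller than in clusters 6 and 7. It was 1.62 with the clusters at equal weight, a setting added after the data were seen. In crypt-base and proliferating nuclei Car4 was low, at 20.1 CPM in the Pink1 KO and 11.7 CPM in the WT library (1.72, 1.15 to 2.62, and 3.69 when thinned), which is below the 25.7 and 24.8 CPM outside the epithelium. In cluster 7, Car4 was found in 56.5% of 430 Pink1 KO and 48.5% of 518 WT nuclei at median depths of 1858.5 and 1938.5 UMIs, or 36.5% and 23.7% when thinned. Nuclei with 5 or more Car4 UMIs made up 19.3% of the cluster in the Pink1 KO and 10.4% in the WT library. In enteric glia-like nuclei, which are not known to use Car4, 1 of 107 Pink1 KO and 1 of 72 WT nuclei held a Car4 UMI, at median depths of 1503 and 1829.5 UMIs.

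**Figure D3:**
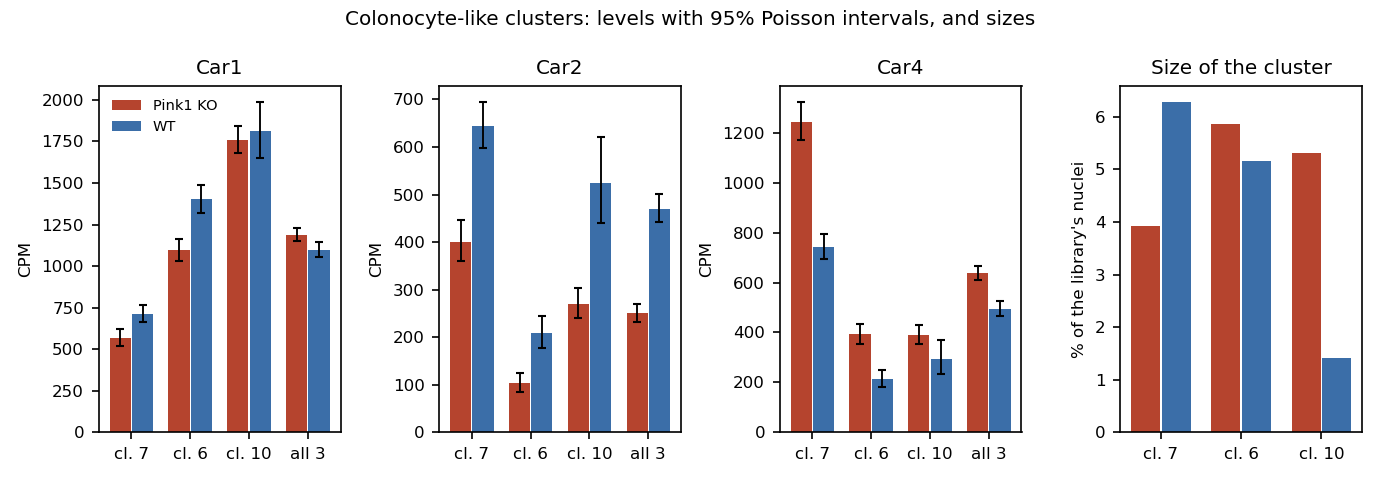
Car1, Car2 and Car4 in CPM (bars from 0, with 95% Poisson intervals) in colonocyte-like clusters 7, 6 and 10 and in the 3 together, with the share of each library's nuclei in each cluster at the right, Pink1 KO left of WT. Within every cluster Car2 was lower and Car4 higher in the Pink1 KO library, Car1 was at or below the WT level, and cluster 10 held 5.31% of Pink1 KO and 1.42% of WT nuclei.

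Car4 also appeared in blood endothelium-like nuclei, where the enzyme is known from capillaries of other organs. There 22 of 162 Pink1 KO and 3 of 74 WT nuclei held a Car4 UMI, or 26 and 3 counts, which is 167 CPM (109 to 245) and 34.1 CPM (7.03 to 99.6), at median depths of 916 and 920 UMIs. When thinned, 6.79% of Pink1 KO and none of the WT nuclei held one. The ratio was 4.91 (1.503 to 25.3), from a class with under 100 WT nuclei. Of the 22 Pink1 KO nuclei with Car4, 21 also held a UMI of the endothelial gene Pecam1 and none held one of the epithelial gene Vil1, and 3 held a Car1 UMI. The epithelial gene Epcam was held by 1 of the 22 and Muc2 by 8, against 6.43% and 36.4% of the Pink1 KO nuclei without Car4. Lymphatic endothelium-like nuclei had 3 Car4 counts in each library. In the WT library, smooth muscle-like cluster 19 stood higher, at 98.9 CPM (39.7 to 204). Fibroblast-like clusters 16 (60.6 CPM, 33.1 to 102) and 22 (58.2 CPM, 15.9 to 149) did too, all with intervals that overlapped the blood endothelium-like interval. Blood endothelium-like nuclei thus had the highest Car4 level outside the epithelium in the Pink1 KO library only.

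Car12, the membrane-spanning enzyme (ENSMUSG00000032373; chromosome 9, 66713686 to 66766845, plus strand), had its highest level outside the epithelium, although the interval there overlapped that of the next cluster in each library. Enteric glia-like nuclei, the support cells of the gut's nerve plexus, had 55 Car12 counts in the Pink1 KO and 42 in the WT library, or 313 CPM (236 to 407) and 291 CPM (210 to 393). A Car12 UMI was found in 38 of 107 Pink1 KO (35.5%) and 29 of 72 WT (40.3%) glia-like nuclei, or 12.1% and 11.1% of them when thinned. Fibroblast-like nuclei, at median depths of 1255 and 1331.5 UMIs, held one in 3 of 790 and 2 of 414 nuclei, and lymphatic endothelium-like nuclei had no Car12 count in either library, where 3 counts would be 21.1 and 28.0 CPM. Of the Car12-holding glia-like nuclei, none of the 38 in the Pink1 KO and 1 of the 29 in the WT library held a UMI of the epithelial gene Epcam, and 1 of the 38 and 3 of the 29 held one of Car1. Vil1 was held by 1 of the 38 and 3 of the 29, against 5.80% and 2.33% of the glia-like nuclei without Car12. Muc2 was held by 15 of the 38 and 17 of the 29, against 36.2% and 44.2%. The ratio in glia-like nuclei was 1.07 (0.706 to 1.65).

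Within the epithelium Car12 was high in cluster 10 (209 CPM in the Pink1 KO, 197 CPM in WT), cluster 2 (177 and 215 CPM) and crypt-base-like cluster 3 (154 and 202.5 CPM). Their intervals all overlapped in the WT library. In the Pink1 KO library that of cluster 2 overlapped both others, but those of clusters 10 and 3 did not overlap. In colonocyte-like cluster 7, where Car4 was highest, Car12 had 9 and 12 counts, or 10.6 and 11.1 CPM. Between the libraries its ratio was 0.928 (0.846 to 1.02) over the epithelium and 0.743 (0.633 to 0.871) in crypt-base and proliferating nuclei. It was below 1 in 7 of the 8 epithelial clusters with enough counts and at least 1.5-fold lower in 3 of them. These were cluster 6 at 0.446 (0.324 to 0.610), from 65.1 CPM in the Pink1 KO and 146 CPM in the WT library, crypt-base-like cluster 5 at 0.592 (0.394 to 0.881), and cluster 12 at 0.621 (0.372 to 1.02), which was 1.36 with the libraries clustered separately. At the coarser clustering (resolution 0.5) the Car12 ratio of cluster 6 was 0.890. The share of all genes past 1.5-fold was 19.3% in cluster 6, 10.5% in cluster 5 and 12% in cluster 12. In cluster 10 the ratio was 1.06 (0.778 to 1.47), and that cluster took a larger share of the Pink1 KO library. Without it, a setting added after the data were seen, the ratio over the epithelium was 0.798.

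Car8, the acatalytic relative (ENSMUSG00000041261; chromosome 4, 8143362 to 8239041, minus strand), was highest in a Muc2-high cluster and is itself among that cluster's leading genes. Cluster 1, which was high in Muc2, held 64.8% of all Car8 counts in the Pink1 KO and 59.8% in the WT library, at 630.3 and 668 CPM, a ratio of 0.944 (0.869 to 1.03). A Car8 UMI was found there in 52.4% of 1018 Pink1 KO and 52.7% of 783 WT nuclei, or 22.9% and 24.3% when thinned, at median depths of 1833 and 1933 UMIs. Colonocyte-like nuclei held one in 1.45% and 1.51%, at median depths of 1631.5 and 1791 UMIs, or 0.604% and 0.377% when thinned. The libraries were apart in goblet-like cluster 9, with 242 counts in the Pink1 KO and 310 in the WT library, or 240.2 and 462 CPM, a ratio of 0.520 (0.437 to 0.617), where 16.6% of all genes passed 1.5-fold. At the coarser clustering (resolution 0.5) the best-matching cluster gave 0.771. Cluster 4 had the same value among its alternatives, so both goblet-like clusters were probably matched to a joint cluster. The number of nuclei with 5 or more Car8 UMIs in cluster 9 was 6 of 498 in the Pink1 KO and 17 of 300 in the WT library. In Muc2-high cluster 14 the order was the other way, at 254 and 175 CPM and a ratio of 1.45 (1.11 to 1.90). The other goblet-like cluster, cluster 4, was low in both libraries, at 32.6 and 22.3 CPM. Of the 7 epithelial clusters with enough Car8 counts only cluster 9 passed 1.5-fold.

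Hormone-secreting enteroendocrine-like nuclei split by Car8. Cluster 27, led by the peptide hormone genes Gcg and Pyy, had 29 Car8 counts in 60 Pink1 KO nuclei and 23 in 41 WT nuclei, or 256 CPM (171 to 368) and 261 CPM (165 to 391). Cluster 23, led by Chgb and the serotonin-synthesis gene Tph1, had 0 counts in 84 Pink1 KO nuclei, which allows up to 17.3 CPM, and 4 in 58 WT nuclei, or 30.9 CPM (8.41 to 79.0). Of the 17 Pink1 KO nuclei of cluster 27 with Car8, 14 held a Gcg UMI, against 48.8% of those without Car8, and in WT 9 of 12 did, against 41.4%. Pyy was held by 64.7% against 65.1% in the Pink1 KO and by 100% against 65.5% in the WT library. The marker Chga was rarer beside Car8, at 23.5% against 34.9% and 8.33% against 34.5%. Nuclei with Car8 were also deeper, at medians of 1986 against 1756 UMIs in the Pink1 KO and 2318 against 1787 in the WT library. Muc2 UMIs, which come with free RNA and with mucus cells, were found in 10 of the 17 and 10 of the 12, against 44.2% and 58.6% of the nuclei without Car8. Cluster 28, outside the epithelium and led by Kcnn3 and Adra1a, had 11 Car8 counts in 52 Pink1 KO nuclei and 13 in 36 WT nuclei, or 164 CPM (82.1 to 294) and 265 CPM (141 to 453). Over all nuclei outside the epithelium Car8 stood at 13.4 CPM in the Pink1 KO and 36.5 CPM in the WT library, a ratio of 0.366 (0.244 to 0.542), which was 0.858 with doublets kept. In the same nuclei Muc2, a measure of free mucus-cell RNA, stood at 513 and 886 CPM, a ratio of 0.579 (0.541 to 0.620), and its part in the Car8 ratio was not tested.

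**Figure D4:**
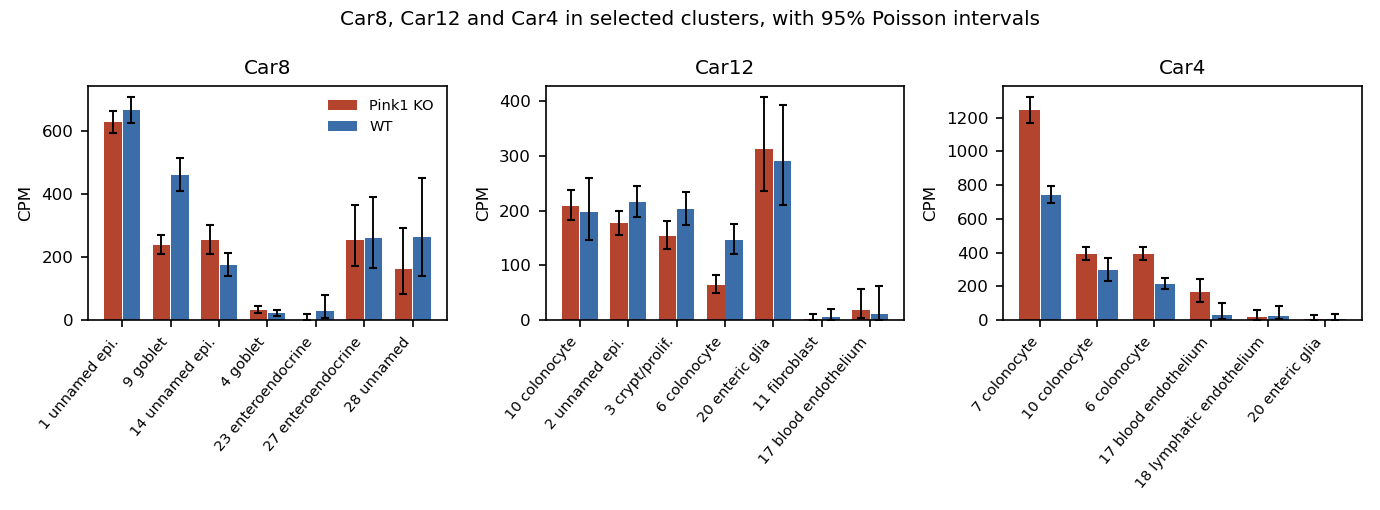
Car8, Car12 and Car4 in CPM (bars from 0, with 95% Poisson intervals) in clusters chosen to show the mucus, hormone, glial and endothelial nuclei, Pink1 KO left of WT. Car8 is high in cluster 27, while cluster 23 has no Car8 count in the Pink1 KO and few in the WT library. Car12 is highest in the enteric glia-like cluster 20, and Car4 is seen in the blood endothelium-like cluster 17 of the Pink1 KO library.

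Car13, a cytosolic enzyme (ENSMUSG00000027555; chromosome 3, 14641727 to 14663002, plus strand), was sparse. It had 93 counts in the Pink1 KO and 46 in the WT library, or 5.02 and 3.05 CPM, a ratio of 1.64 (1.14 to 2.39), with at most 2 and 1 UMIs in a nucleus. The ratio was 3.02 when nuclei were thinned. Of these, 88 and 45 lay in the epithelium. Colonocyte-like nuclei held 28 in the Pink1 KO and 4 in the WT library, crypt-base and proliferating nuclei 23 and 19, and cluster 2 had 22 and 11. No class or cluster reached 50 counts, so the higher level could not be placed in a cell type at this depth.

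Car3, a slow cytosolic enzyme best known from muscle, liver and fat (ENSMUSG00000027559; chromosome 3, 14863512 to 14872523, plus strand), had 135 counts in the Pink1 KO and 12 in the WT library, but 1 Pink1 KO nucleus of fibroblast-like cluster 11 held 102 of them and 1 of goblet-like cluster 9 held 24. Outside the 2 highest nuclei of each library, 9 counts remained in 7 Pink1 KO nuclei and 9 in 9 WT nuclei. The ratio of 9.15 (5.07 to 18.1) over all nuclei rests on those 2 nuclei and was 2.68 without the highest nucleus of each library. Apart from those nuclei Car3 was not above 2 UMIs in any nucleus.

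The genes whose levels ran most like those of each member over the 30 clusters, with the counts of both libraries summed, were found by Pearson's r of log2(CPM + 5) among 8245 genes with at least 500 UMIs. The clusters share the same 2 libraries, and r is given as a description. Nearest to Car1 was Cyp2c55, a cytochrome P450 of the colon (r = 0.93), followed by Apol10a (0.88), the exchanger Slc26a3 (0.87), Ces2e (0.87) and Ces2c (0.87). Nearest to Car2 was Atp1b1, a subunit of the sodium pump (0.90), with Nme7, Cldn8, Aoc1 and Sema4g next (0.88 to 0.86). Nearest to Car4 were Lama3 (0.79), Ceacam20, Ces2c, Specc1l and Sectm1b. For Car12 the nearest was Trim2 (0.76), before Ugt1a7c, Ugt1a5 and Arl14. The 5 nearest to Car8 had r of 0.69 to 0.71 and were Stim2, Golga5, Galnt10, Sytl2 and Sec16a. Their order was not the same within each library, with r highest for Galnt10 in the Pink1 KO (0.67) and for Sytl2 in the WT library (0.67), and Stim2 at 0.41 and 0.65. Among the members, r of Car1 and Car4 was 0.70 with the libraries summed, 0.59 in the Pink1 KO and 0.61 in the WT library. For Car8 and Car1 it was -0.31 summed, -0.24 in the Pink1 KO and -0.28 in the WT library, and for Car8 and Car4 it was -0.34, -0.12 and -0.37.

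Nuclei of cluster 7 showed which members were found together. When thinned to 500 UMIs, Car2 was found in 22.0% of Pink1 KO nuclei with a Car1 UMI against 11.8% of those without, and in WT in 29.4% against 18.3%. Car4 was found there in 35.4% of Pink1 KO nuclei with Car1 against 36.8% without, and in WT in 27.7% against 22.6%. Beside Car2, also when thinned, Car4 was rarer in cluster 7. It was in 27.1% of Pink1 KO nuclei with Car2 against 38.0% without, and in WT in 18.5% against 25.1%. In cluster 10 the shares with Car4 were lower beside Car1, at 9.24% against 17.2% in the Pink1 KO and 6.38% against 15.7% in the WT library. Car12 there was at 13.9% of Pink1 KO nuclei with Car1 against 7.56% without, and at 17.02% against 1.43% in WT. The shares in cluster 10 beside Car1 rest on 238 Pink1 KO and 47 WT nuclei, of which 22 and 3 held Car4 and 33 and 8 held Car12, so the WT shares rest on few nuclei.

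Of the 9 other carbonic anhydrase genes, 4 had at least 50 UMIs over both libraries. Car9, a membrane enzyme known as a target of hypoxia-inducible factors, had 530 counts in the Pink1 KO and 343 in the WT library, or 28.6 and 22.8 CPM, a ratio of 1.26 (1.09 to 1.44), and in the epithelium 1.34 (1.16 to 1.54). In cluster 0 it had 92 and 49 counts, a ratio of 1.71 (1.19 to 2.47), where 12.6% of all genes passed 1.5-fold, and in proliferating cluster 8 it had 35 and 15 counts (1.85, 0.986 to 3.65). Car15 had 205 and 146 counts (1.14, 0.919 to 1.42), and in cluster 1 it had 43 and 22 (1.58, 0.926 to 2.78). Car5b, a mitochondrial enzyme, had 59 and 57 counts (0.842, 0.575 to 1.23), and in the epithelium 24 and 35 (0.577, 0.329 to 0.998). Car7, a cytosolic enzyme, had 28 and 35 counts (0.651, 0.381 to 1.10) and was the only one of the 4 past 1.5-fold over all nuclei. Car5a, Car6, Car10, Car11 and Car14 had under 50, and Car6 had none.

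Genes that move the products of these enzymes were counted from a list of 24. In colonocyte-like nuclei 13 were measured, and in the Pink1 KO library 1 of them was past 1.5-fold upward and 1 downward, where 15.5% of all genes passed. Slc9a3, the exchanger that takes up sodium for protons, had 1164 CPM in the Pink1 KO and 493 CPM in the WT library, a ratio of 2.36 (2.20 to 2.53). It is also a marker of the class and a leading gene of cluster 10, and within the clusters its ratio was 1.68 in cluster 7, 1.65 in cluster 6 and 1.67 in cluster 10. Slc4a4, a sodium-bicarbonate cotransporter of the basal membrane, had 182 and 345 CPM, a ratio of 0.528 (0.471 to 0.591). Within the clusters Slc4a4 was not past 1.5-fold, at 0.754 (0.660 to 0.860) in cluster 7, 0.705 (0.528 to 0.941) in cluster 6 and 1.17 (0.681 to 2.15) in cluster 10. Slc26a3, which exchanges chloride for bicarbonate, was at 2703 and 2468 CPM (1.10, 1.06 to 1.13) for the class. By cluster Slc26a3 was at 1.39 (1.33 to 1.45) in cluster 7 and 1.12 (1.03 to 1.22) in cluster 10, and in cluster 6 it was lower, at 0.662 (0.597 to 0.735). Of 12 measured genes of the list in each cluster, 4 were past 1.5-fold higher and none lower in cluster 7, 1 higher and 3 lower in cluster 6, and 4 higher and 2 lower in cluster 10. Of all genes, 17.2% passed 1.5-fold in either direction in cluster 7, 19.3% in cluster 6 and 20.6% in cluster 10. The list's median log2 ratio in the class was 0.13, beside -0.04 over all 8069 genes tested. In goblet-like nuclei 3 of 11 measured genes were higher and 2 lower, where 13.9% of all genes passed 1.5-fold. The proton pump subunit gene Atp12a had a ratio of 4.10 (3.10 to 5.49), the bicarbonate-permeable channel gene Best2 1.62 (1.42 to 1.84) and Slc26a3 2.07 (1.38 to 3.15). Cftr had 0.529 (0.359 to 0.772) and Slc4a4 0.615 (0.354 to 1.05). By cluster, Atp12a and Best2 were past 1.5-fold in both clusters 4 and 9, Slc26a3 in cluster 9 and Cftr in cluster 4, while Cftr in cluster 9 and Slc4a4 in both clusters had under 50 counts. In crypt-base and proliferating nuclei none of 10 passed 1.5-fold, Cftr being at 721 and 756 CPM.

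The 3 inositol trisphosphate receptor genes, whose products release calcium from internal stores, did not pass 1.5-fold in any of these classes taken whole. Within the crypt-base and proliferating class, Itpr1 was higher in cluster 5, at 53.6 and 32.1 CPM (1.67, 1.08 to 2.61), and Itpr2 lower in cluster 8, at 53.3 and 82.0 CPM (0.650, 0.445 to 0.945). In goblet-like nuclei Itpr1, the receptor bound by Car8, had 172 CPM in the Pink1 KO and 210 CPM in the WT library, a ratio of 0.820 (0.711 to 0.946). Of 10 genes known as targets of hypoxia, as Car9 and Car12 are in human tumours, 7 were measured in colonocyte-like nuclei and 3 were at least 1.5-fold lower in the Pink1 KO library, where 9.63% of all genes were. Pdk1, whose product inhibits pyruvate dehydrogenase, had a ratio of 0.357 (0.272 to 0.464), Ankrd37 0.403 (0.284 to 0.569) and Egln3, an oxygen-sensing enzyme, 0.608 (0.387 to 0.952). The other 4 lay between, with the glucose transporter gene Slc2a1 at 1.49 (1.204 to 1.85) and Vegfa, a growth factor of vessels, at 1.33 (1.18 to 1.503). By cluster, Pdk1 was lower in cluster 7, at 0.311 (0.206 to 0.458), Ankrd37 was lower in cluster 6, at 0.484 (0.314 to 0.739), and Egln3 was past 1.5-fold in none of clusters 6, 7 and 10. Vegfa was higher in cluster 6, at 1.59 (1.36 to 1.87), and in cluster 10, at 1.80 (1.12 to 3.02), and was 1.01 (0.792 to 1.28) in cluster 7. Slc2a1 was higher in cluster 6, at 1.58 (1.09 to 2.31).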

How the data were processed

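The measurements are UMI counts of genes in nuclei, deposited by the authors. Per the file headers Cell Ranger 6.1.2 made them, and the submitters' processing notes name the mm10 (GRCm38) build. Not given in the sources used here are the gene annotation, whether introns or strand were used, and whether doublets had been taken out. Symbols were taken from the files, and GENCODE M21 matched 32158 of 32285 gene IDs (99.6%).

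Barcodes with at least 500 UMIs, 300 genes and at most 10% mitochondrial UMIs were kept (12146 Pink1 KO, 8888 WT). The highest Scrublet scores, at 0.8% per 1000 barcodes, were removed as doublets, 1180 Pink1 KO (9.72%) and 632 WT (7.11%) barcodes. Counts were scaled to 10000 and log-transformed, and 2000 variable genes, without carbonic anhydrase, mitochondrial, Xist, Y-linked and Pink1 genes, gave 30 principal components, a graph of 20 shared neighbours and Leiden clusters at resolution 1 (scanpy 1.11.5, leidenalg 0.10.2). Clusters were named by marker score, the mean log2 fold of a class's markers over other nuclei after adding 5 CPM. The best class needed a score of 0.3 and 3 markers up 2-fold, with any second class below 0.55 of its score. Unnamed clusters with at least 60 CPM of the epithelial gene Vil1 counted as epithelium. Names are rebuilt and may differ from the study's.

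Counts were summed per library and unit. With 1 library per genotype no test was run. Poisson, Clopper-Pearson and conditional binomial 95% intervals cover counting error only, and the floor is 3 counts. A ratio was read against 1.5-fold with at least 100 nuclei per library and 50 counts. Only the ratio and its interval were tried on simulated data, with Poisson counts, the kind of error that the interval assumes. Filtering, doublet removal, clustering, naming and the spread between mice were not part of that trial. The members, gene lists, rule for named genes and marker lists were chosen with earlier results of these data known. Named were the members, the other carbonic anhydrase genes, members of the transport, inositol trisphosphate receptor and hypoxia lists, and the 5 genes most like each member with at least 500 UMIs. Some items that this rule names are not reported here. Markers and other genes were added where a result turned on them.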

Additional observations from a re-analysis of the deposited data

How the results depend on the processing

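Across 83 ratios and 16 alternatives (13 planned, 3 added after the data were seen), 26 ratios were past 1.5-fold as reported. Of these, 24 stayed on the same side of 1 in every alternative run and 12 stayed past 1.5-fold, the Car2 ratios of cluster 1 (0.402 to 0.544), cluster 2 (0.531 to 0.616) and cluster 3 (0.421 to 0.506) among them. Leaving immediate early genes out of the totals, or dividing by the median ratio of all genes, moved none of the 83 beyond its counting interval. With the stricter filter the Car2 ratio was 0.607 in the epithelium and 0.470 in colonocyte-like nuclei, Car1 there was 1.02 and Car4 1.46. At the finer clustering (resolution 2) Car2 in colonocyte-like nuclei was 0.635 and Car1 0.982. With the libraries clustered separately Car1 there was 1.15 and Car12 in cluster 12 reversed to 1.36. Thinned to 500 UMIs, Car4 was 1.42 in colonocyte-like nuclei and reversed to 0.428 in cluster 1, and Car13 over all nuclei was 3.02. With each nucleus at equal weight Car4 was 1.18. Without cluster 10 Car1 was 0.856 and Car4 1.495 in the remaining colonocyte-like nuclei, and Car12 in the epithelium 0.798. With the colonocyte-like clusters at equal weight Car1 was 0.873 and Car4 1.62. Car3 was 2.68 without the nucleus with the most UMIs. At 20 counts in place of 50, 12.4% of genes passed 1.5-fold in crypt-base and proliferating nuclei. Where a setting changed the clusters, each cluster was read from the new cluster that overlapped it most, so several can share a match. The cause of these changes was not tested.

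No paired analysis was possible because each genotype had 1 library. The spread between mice is unknown, so a ratio cannot be assigned to genotype. Depth limits the sparse members: those with under 50 counts in a class were not read against 1.5-fold there, which does not show that they were equal.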

Other observations

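Outside the nuclei described above, Car2 was also seen in macrophage- and dendritic-like nuclei. It had 7 counts in the Pink1 KO and 38 in the WT library, or 21.4 and 159 CPM, and was found in 0.712% of Pink1 KO and 3.61% of WT nuclei when thinned to 500 UMIs. In smooth muscle-like nuclei Car2 stood at 25.1 CPM in the Pink1 KO and 72.2 CPM in the WT library (0.348, 0.187 to 0.633). Car1 was lower there too, at 82.1 and 138 CPM (0.596, 0.412 to 0.863), and 5.61% of all genes were at least 1.5-fold lower in these nuclei. However, 1 WT nucleus held 12 Car1 UMIs, 19.7% of the Car1 counts of these WT nuclei, while the most in a Pink1 KO nucleus was 3. In smooth muscle-like cluster 13 alone the Car1 ratio was 0.760, and it ran from 0.595 to 1.37 over 15 alternatives. Car2 stood in fibroblast-like nuclei at 38.7 and 43.6 CPM. The goblet gene Muc2 was also lower outside the epithelium in the Pink1 KO library, and the part of free RNA in these values was not tested.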
